A study of Mus musculus with 9 samples.

Results

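The genes described here are 35 interferon response genes, which cells transcribe when an interferon binds its receptor. The rule that chose them is a list of symbols and uses no measured value, although the list was drawn up with earlier results of these data known. All 35 were found among the 55401 mouse gene identifiers of the count table. Each of the 35 passed the filter on low counts. They were followed in bulk RNA sequencing of mammary tumors from female C57BL/6 mice that carry the MUC1.Tg and MMTV-PyMT transgenes (MMT mice). KO tumors (n = 5, genotype Hspa1a/Hspa1b-/-) came from mice aged 120 to 125 days. WT tumors (n = 4, genotype Hspa1a/Hspa1b+/+) came from mice aged 122 to 132 days. Hspa1a and Hspa1b encode the inducible heat shock protein HSP72, and the series asks what this chaperone does in metastatic mammary tumors.

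Type I and type III interferons signal through JAK1 and TYK2 to a complex that holds STAT2 and IRF9. That complex binds the interferon-stimulated response element (ISRE) before genes such as Isg15 and Ifit1. Interferon gamma signals through JAK1 and JAK2 and acts on the gamma-activated site (GAS) of genes such as Irf1. In tumors the response is known both from tumor cells and from infiltrating immune cells, and bulk RNA does not separate these sources.

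Both groups carry the same transgenes. MMTV-PyMT places the polyoma middle T oncogene under the mouse mammary tumor virus promoter, which is active in mammary epithelium, and MUC1.Tg adds a human MUC1 gene. The tumors were dissociated with enzymes at 37 °C and strained before RNA extraction, so the libraries hold the cells that came through this step. The labels name 1 tumor sample per library and do not say how many animals stand behind it, so the tests weigh differences against variation among the libraries alone, which may be partly technical. Gene counts summed to 4410399 to 6221181 per library, and 3 counts, the level that a count of 0 allows, came to 0.482 to 0.680 CPM, counts scaled to a common library size. Members had from 58 counts (Isg15 in WT 1) to 2104 counts (Parp14 in KO 2). Hspa1b had 0.00 to 0.66 CPM in KO libraries and 28.7 to 81.1 CPM in WT libraries, and Hspa1a had 0.16 to 1.64 CPM in KO libraries and 3.99 to 9.77 CPM in WT libraries, so every library matched its label. Mammary epithelial markers summed to 3274 to 3889 CPM in KO libraries and 3521 to 6542 CPM in WT libraries, so the labelled tissue was represented in each. WT 1 and WT 4 stood apart by their milk genes, which summed to 16718 and 11830 CPM there, against 2451 to 8027 CPM in KO libraries and 3375 and 5242 CPM in WT 2 and WT 3.

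The start regions of 5 members are shown first, because the factors that interferon activates are known to bind elements close to the start of such genes. Each runs from 250 bases before to 50 bases after the RefSeq start (GRCm38.p6), on the gene's own strand. Capitals mark the ISRE letters GAAANNGAAA, searched on both strands, and the GAS letters TTCNNNGAA, which read alike on both strands.
Isg15, chr4:156200769-156201068, minus strand: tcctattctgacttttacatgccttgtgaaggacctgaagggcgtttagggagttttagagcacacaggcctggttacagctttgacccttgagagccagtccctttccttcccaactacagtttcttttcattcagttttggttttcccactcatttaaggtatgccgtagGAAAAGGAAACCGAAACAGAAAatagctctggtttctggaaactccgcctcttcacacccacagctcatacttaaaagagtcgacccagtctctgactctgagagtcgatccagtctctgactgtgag
Ifit1, chr19:34640639-34640938, plus strand: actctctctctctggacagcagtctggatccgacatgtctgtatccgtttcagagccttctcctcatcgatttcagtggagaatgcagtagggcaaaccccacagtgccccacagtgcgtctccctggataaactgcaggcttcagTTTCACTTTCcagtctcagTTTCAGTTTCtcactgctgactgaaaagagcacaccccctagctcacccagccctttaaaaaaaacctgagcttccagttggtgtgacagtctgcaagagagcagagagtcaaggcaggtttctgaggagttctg
Bst2, chr8:71537423-71537722, minus strand: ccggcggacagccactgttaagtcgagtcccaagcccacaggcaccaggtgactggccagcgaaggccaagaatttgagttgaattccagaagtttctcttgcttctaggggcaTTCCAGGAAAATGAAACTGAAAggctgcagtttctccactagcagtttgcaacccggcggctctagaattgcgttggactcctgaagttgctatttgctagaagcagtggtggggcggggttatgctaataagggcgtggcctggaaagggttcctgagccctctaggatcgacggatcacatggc
Irgm1, chr11:48871371-48871670, minus strand: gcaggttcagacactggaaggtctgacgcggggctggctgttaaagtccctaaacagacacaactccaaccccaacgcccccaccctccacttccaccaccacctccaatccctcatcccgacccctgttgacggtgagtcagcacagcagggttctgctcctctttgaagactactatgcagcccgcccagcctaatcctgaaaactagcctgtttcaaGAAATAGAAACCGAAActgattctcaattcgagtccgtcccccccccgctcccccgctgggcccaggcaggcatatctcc
Xaf1, chr11:72301379-72301678, plus strand: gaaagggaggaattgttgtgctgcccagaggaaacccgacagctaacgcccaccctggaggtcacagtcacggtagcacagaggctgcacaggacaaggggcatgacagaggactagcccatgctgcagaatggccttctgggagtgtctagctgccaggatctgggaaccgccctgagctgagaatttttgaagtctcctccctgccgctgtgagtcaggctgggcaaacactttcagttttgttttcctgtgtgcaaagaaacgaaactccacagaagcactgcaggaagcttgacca
Isg15 and Ifit1 stand for the classical targets, Bst2 and Xaf1 are the members with the lowest and the highest fold change, and Irgm1 is the GTPase with the highest one. Isg15 held 3 overlapping ISRE matches, which began 78, 72 and 66 bases before the start. Ifit1 held 2 on the opposite strand, at 104 and 85 bases before the start. In Bst2 a GAS match at 136 bases overlapped the first of 2 ISRE matches, at 130 and 124 bases. The 2 overlapping matches of Irgm1 lay 30 and 24 bases before its start, and the Xaf1 window held neither set of letters.

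Windows were in the table for 26 of the 35 members. An ISRE match was in 14 of these 26 members (53.8%), against 3.99% of the 27025 genes with a window. A GAS match was in 7 of the 26 (26.9%), against 9.55% of all genes. The 14 members with an ISRE match had a median log2 fold change (KO over WT) of 0.03, ranging from -0.45 (Bst2) to 0.31 (Irgm1), with 9 above 0 and 5 below. The 12 members whose window held no ISRE match had a median of 0.07, with 9 above 0 and 3 below. The 9 members without a window could not be placed in either set, and they had a median of 0.13, with 9 above 0 and 0 below. These letters are a description of the windows and not of binding.

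No member passed the test between KO and WT tumors. The edgeR quasi-likelihood test called 0 of 35 members at a Benjamini-Hochberg adjusted p under 0.05, against 13 of the 14665 genes tested (0.0886%), and the smallest adjusted p of a member was 0.616. The count over all genes was 6 without KO 1, KO 4 or KO 5, 7 without KO 2 or WT 2, and 8 without WT 3. At an unadjusted p under 0.05 there were 2 members (Xaf1, higher in KO, and Bst2, lower in KO), while 7.95% of all genes passed that threshold (3.36% higher in KO and 4.59% lower). DESeq2, run on 29228 genes, called 63 of them, and limma-voom with sample weights called 19 of 14665. Both also called 0 members, each with 2 members at an unadjusted p under 0.05. The count of 2 members became 1 when KO 2, KO 3, KO 4, WT 1, WT 3 or WT 4 was left out, and 3 without KO 5. The KO and WT libraries overlapped for all 35 members, whereas 2.7% of all genes had no overlap.

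In the edgeR fit on all 9 libraries, the size of each difference was bounded gene by gene. Each of the 35 members had a 95% interval of its log2 fold change inside -1 to 1, a 2-fold change in either direction, as did 79.1% of all genes. Taken over the list, the intervals reached from -0.90 (Rsad2) to 0.95 (Zbp1). Intervals were not taken for the fits with libraries left out, where the estimates moved, so the bound holds for the full set of libraries only. The median log2 fold change of the members was 0.06, against -7.8e-05 for all genes tested, and the median SE was 0.21 for both.

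Of the 35 members, 27 had a log2 fold change above 0 and 8 below, against 50.0% above 0 among all genes. This split rested on single libraries. Without WT 1, 22 members were below 0 and the median was -0.06. Without KO 5, 21 members were below 0 and the median was -0.03. Without KO 1 or without WT 4, 5 members were below 0, and the median was 0.12 and 0.21. Of the other methods, limma-voom with sample weights gave 20 members below 0 and a median of -0.01, whereas DESeq2 gave 8 and a median of 0.05.

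**Figure D1:**
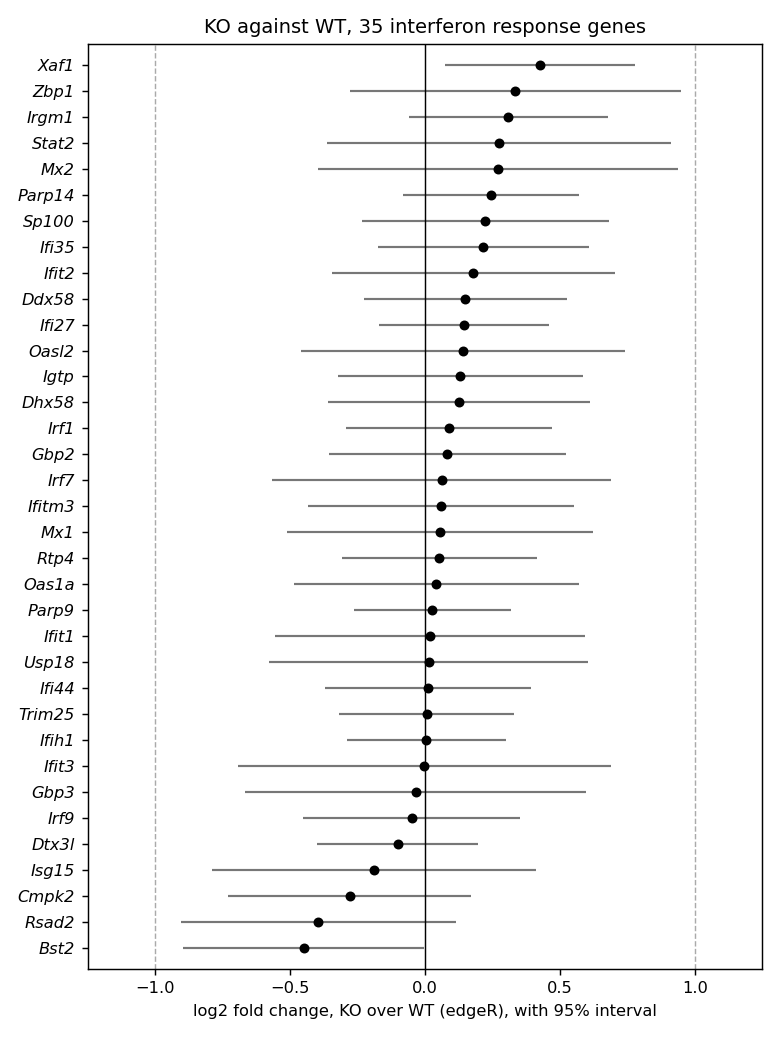
Log2 fold change of KO over WT for the 35 interferon response genes, from edgeR, with points for the estimates and lines for their 95% intervals. Xaf1 lies at the top (0.43) and Bst2 at the bottom (-0.45), and no interval crosses the dashed lines at -1 and 1.

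The 4 transcription factors had log2 fold changes from -0.05 to 0.27, with 3 above 0. Irf7, the factor that amplifies type I interferon production (chr7:141262706-141266481, minus strand), had 139, 219, 136, 160.1 and 256 CPM in KO 1 to KO 5, against 100.0, 183, 140.2 and 274 CPM in WT 1 to WT 4. Its libraries spread widely in both groups, and the means were 182 ± 53.3 CPM in KO tumors and 174 ± 74.8 CPM in WT tumors. The log2 fold change was 0.06 ± 0.29 (SE, adjusted p = 0.968), and it was -0.13 without WT 1 and 0.36 without WT 4.

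Stat2, a subunit of the ISRE-binding complex (chr10:128270559-128292849, plus strand), had 197, 279.9, 148, 229 and 297 CPM in KO 1 to KO 5, against 94.9, 218, 168 and 282 CPM in WT 1 to WT 4. WT 1 was the lowest of the 9 libraries and WT 4 among the 3 highest, so the WT group enclosed most of the KO values. Its log2 fold change was 0.27 ± 0.29 (SE, adjusted p = 0.830), and it was 0.05 without WT 1 and 0.52 without WT 4. Irf9 is the DNA-binding subunit of that complex (chr14:55603571-55610030, plus strand) and lies 0.726 Mb from Ppp1r3e, one of the 13 genes called. Irf9 had 99.3, 133, 105, 124 and 135 CPM in KO 1 to KO 5, against 83.3, 128, 119 and 164 CPM in WT 1 to WT 4. Its log2 fold change was -0.05 ± 0.18 (SE, adjusted p = 0.957), and it was -0.20 without WT 1 and 0.11 without WT 4, the WT libraries with its lowest and its highest value. Irf1, a direct target of interferon gamma, averaged 91.7 ± 12.3 CPM in KO tumors and 86.1 ± 20.5 CPM in WT tumors, with a log2 fold change of 0.09 ± 0.17 (SE).

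All 4 nucleic acid sensors had log2 fold changes above 0, from 0.01 (Ifih1) to 0.33 (Zbp1), and none passed the test. Ifih1 and Dhx58 fell below 0 without WT 1, and Ifih1 also without KO 2, WT 2 or WT 3. Zbp1, a sensor of left-handed nucleic acid that can start necroptosis (chr2:173206612-173218923, minus strand), had 67.4, 97.4, 74.7, 106 and 128 CPM in KO 1 to KO 5, against 35.8, 89.0, 73.1 and 102 CPM in WT 1 to WT 4. WT 1 was far below the other 8 libraries, which ranged from 67.4 to 128 CPM. The log2 fold change of Zbp1 was 0.33 ± 0.28 (SE, adjusted p = 0.765), and it was 0.10 without WT 1 and 0.51 without WT 4. Ddx58 encodes RIG-I, a sensor of viral RNA ends, and averaged 224 ± 28.3 CPM in KO tumors and 202 ± 47.3 CPM in WT tumors. Ifih1 encodes MDA5, a sensor of long double-stranded RNA, and averaged 173 ± 23.1 CPM in KO tumors and 172 ± 21.2 CPM in WT tumors, the closest pair of means among the sensors. Dhx58 encodes LGP2, a regulator of both, and averaged 70.8 ± 11.2 CPM in KO tumors and 64.8 ± 21.7 CPM in WT tumors. Ddx58 and Dhx58 were lowest in WT 1, whereas Ifih1 was lowest in KO 1.

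Among the 11 antiviral effectors 7 had a log2 fold change above 0 and 4 below, with a median of 0.04. The lowest was that of Bst2, which encodes tetherin, a protein that holds budding virus at the cell surface (chr8:71534255-71537456, minus strand). Bst2 had 33.1, 54.1, 53.0, 42.8 and 66.9 CPM in KO 1 to KO 5, against 65.8, 54.3, 64.1 and 89.1 CPM in WT 1 to WT 4. The groups overlapped, since 3 of the 4 WT libraries lay below KO 5. The means were 50.0 ± 12.7 CPM in KO tumors and 68.3 ± 14.7 CPM in WT tumors, and the log2 fold change was -0.45 ± 0.20 (SE, adjusted p = 0.626), with an unadjusted p of 0.0490. Over the alternative settings its estimate stayed between -0.64 and -0.25, with adjusted p-values from 0.301 to 0.951.

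Rsad2 and Cmpk2, neighbours on chromosome 12, followed Bst2 in order. Rsad2 encodes viperin, which makes a chain-terminating nucleotide (chr12:26442746-26456452, minus strand). It had 45.1, 64.0, 57.1, 74.2 and 102 CPM in KO 1 to KO 5, against 80.9, 69.2, 122 and 88.2 CPM in WT 1 to WT 4, and its log2 fold change was -0.39 ± 0.23 (SE, adjusted p = 0.682). Cmpk2, a nucleotide kinase of the same pathway (chr12:26469204-26479837, plus strand), had 29.0, 43.5, 32.5, 38.5 and 49.8 CPM in KO 1 to KO 5, against 34.4, 40.3, 48.7 and 64.2 CPM in WT 1 to WT 4, with a log2 fold change of -0.28 ± 0.21 (SE, adjusted p = 0.728). In both genes KO 1 was the lowest of the 9 libraries. The estimate shrank to -0.21 for Rsad2 without WT 3 and to -0.10 for Cmpk2 without WT 4.

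Ifitm3, a membrane protein that blocks virus entry (chr7:141009586-141010770, minus strand), had 82.3, 68.3, 112, 66.3 and 131 CPM in KO 1 to KO 5, against 115, 71.3, 88.9 and 77.9 CPM in WT 1 to WT 4. It is one of the members that did not follow WT 1, where it was the highest of the WT libraries. Its log2 fold change was 0.06 ± 0.22 (SE, adjusted p = 0.957), and -0.26 with age as a covariate. Mx2 and Mx1 encode dynamin-like GTPases, and the Mx1 allele of C57BL/6 mice is known to be defective. Mx2 averaged 70.4 ± 19.5 CPM in KO tumors and 58.4 ± 24.0 CPM in WT tumors, and Mx1 averaged 46.1 ± 5.78 CPM in KO tumors and 44.4 ± 19.1 CPM in WT tumors. Their highest WT libraries stood 3.24-fold (Mx2) and 3.22-fold (Mx1) above WT 1. The log2 fold change of Mx1 was 0.06 ± 0.26 (SE), and -0.17 without WT 1.

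The Ifit genes encode RNA-binding proteins that stop translation of viral RNA. Ifit1 averaged 72.9 ± 21.7 CPM in KO tumors and 72.1 ± 27.0 CPM in WT tumors, Ifit2 29.1 ± 10.5 CPM in KO tumors and 25.7 ± 2.91 CPM in WT tumors and Ifit3 48.1 ± 13.0 CPM in KO tumors and 48.2 ± 23.8 CPM in WT tumors. Ifit3 had the widest spread inside WT of all 35 members, 3.70-fold between WT 4 and WT 1, and its log2 fold change of -0.002 ± 0.314 (SE) was 0.34 without WT 4. Transcripts of Ifit3 match those of Ifit3b at 97.8% over 1700 bases, so its level is uncertain. Oas1a and Oasl2 belong to the family of oligoadenylate synthetases, which activate RNase L. Oas1a averaged 41.7 ± 10.4 CPM in KO tumors and 40.5 ± 12.7 CPM in WT tumors, and Oasl2 averaged 198 ± 55.2 CPM in KO tumors and 180.0 ± 66.0 CPM in WT tumors. Oas1a matches Oas1g at 97.6% over 1861 bases, and Mx2 matches Mx1 at 95.3% over 843 bases, so these levels are uncertain too.

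**Figure D2:**
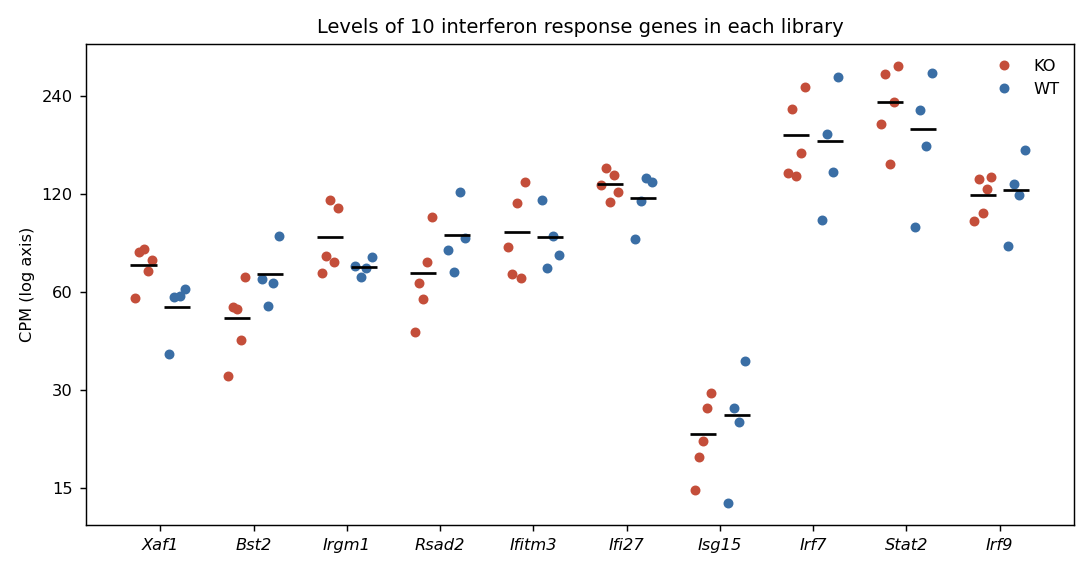
CPM in each library, on a log axis, for 10 interferon response genes, with KO libraries in red left of WT libraries in blue and black lines at the group means. The groups overlap in every gene, and the lowest WT point of Irf7 (100.0 CPM), Stat2 (94.9 CPM), Xaf1 (38.6 CPM) and Isg15 (13.5 CPM) is WT 1.

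The 6 genes of the ISG15, ubiquitin and ADP-ribose systems had a median log2 fold change of 0.01, with 4 above 0. Isg15 encodes the ubiquitin-like modifier that gives the family its name (chr4:156199424-156200818, minus strand). It had 14.8, 18.7, 20.9, 26.4 and 29.4 CPM in KO 1 to KO 5, against 13.5, 26.3, 23.9 and 36.7 CPM in WT 1 to WT 4. The log2 fold change was -0.19 ± 0.27 (SE, adjusted p = 0.874), and it was -0.39 without WT 1 and 0.04 without WT 4. WT 4 was above every KO library while WT 1 was below every one. Transcripts of Isg15 match AC151275.1 at 95.2% over 482 of 756 bases, so its level is uncertain. Parp14, an ADP-ribosyltransferase (chr16:35832874-35871544, minus strand), had 248, 343, 329.5, 296 and 339.9 CPM in KO 1 to KO 5, against 214, 244, 282 and 312 CPM in WT 1 to WT 4. Its means were 311 ± 40.0 CPM in KO tumors and 263 ± 43.1 CPM in WT tumors, with a log2 fold change of 0.24 ± 0.15 (SE, adjusted p = 0.688) that was 0.16 without WT 1.

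Usp18 removes ISG15 from proteins and dampens the type I receptor. It averaged 42.2 ± 9.86 CPM in KO tumors and 41.8 ± 16.1 CPM in WT tumors, and its log2 fold change of 0.01 ± 0.27 (SE) was -0.22 without WT 1. Trim25, a ligase that acts on RIG-I, averaged 194 ± 22.8 CPM in KO tumors and 194 ± 36.6 CPM in WT tumors. Dtx3l and Parp9 encode partners in one complex and share 458 exon bases on opposite strands, so their counts cannot be fully separated where strand was not used. Dtx3l averaged 134 ± 23.3 CPM in KO tumors and 144 ± 8.21 CPM in WT tumors, and Parp9 averaged 122 ± 17.0 CPM in KO tumors and 120.2 ± 13.2 CPM in WT tumors. Their SEs were among the smallest of the members, with log2 fold changes of -0.10 ± 0.14 for Dtx3l and 0.03 ± 0.13 for Parp9.

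Of the 4 inducible GTPases, which act on the membranes around intracellular pathogens, 3 had log2 fold changes above 0. Irgm1, a regulator of this family (chr11:48861968-48871683, minus strand), had 68.6, 77.6, 115, 74.2 and 108 CPM in KO 1 to KO 5, against 72.3, 66.5, 71.0 and 76.8 CPM in WT 1 to WT 4. KO 2, KO 3 and KO 5 were above all WT libraries, KO 2 by less than 1 CPM, and the other 2 KO libraries lay within the WT range of 66.5 to 76.8 CPM. The log2 fold change was 0.31 ± 0.17 (SE, adjusted p = 0.661), and 0.20 without KO 3. Igtp, also known as Irgm3, averaged 56.9 ± 15.9 CPM in KO tumors and 52.1 ± 9.22 CPM in WT tumors, and shares 162 exon bases with Irgm2. Gbp2 averaged 55.7 ± 15.3 CPM in KO tumors and 52.6 ± 8.27 CPM in WT tumors, and Gbp3 averaged 97.8 ± 35.4 CPM in KO tumors and 100.3 ± 33.7 CPM in WT tumors. Set as log2 CPM against each gene's mean over the 9 libraries, the GTPases had a median of 0.26 in KO 3, 0.51 in KO 5 and -0.06 in WT 4, where the antiviral effectors had -0.08, 0.44 and 0.48.

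All 6 remaining induced genes had log2 fold changes above 0, with a median of 0.18. Rtp4 and Ifi44 fell below 0 without WT 1 or without KO 5, and Ifi44 also without KO 3 or WT 2. Xaf1, which counters the caspase inhibitor XIAP (chr11:72301629-72313733, plus strand), had 57.3, 79.8, 81.3, 69.5 and 75.4 CPM in KO 1 to KO 5, against 38.6, 58.1, 58.2 and 61.3 CPM in WT 1 to WT 4. The lowest KO library, KO 1, lay below 3 of the 4 WT libraries, and the other 4 KO libraries lay above all of them. Xaf1 averaged 72.7 ± 9.73 CPM in KO tumors and 54.0 ± 10.4 CPM in WT tumors, and its log2 fold change of 0.43 ± 0.16 (SE, adjusted p = 0.616) had an unadjusted p of 0.0214. Over the alternative settings the estimate stayed between 0.27 and 0.50, with adjusted p-values from 0.341 to 0.931. A stretch of Xaf1 of at most 197 of 2597 bases matches many other genes at 95.1% to 96.4%, so its level is uncertain.

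Ifi27, which encodes a small mitochondrial membrane protein (chr12:103434211-103440239, plus strand), had 128, 144, 113, 137 and 122 CPM in KO 1 to KO 5, against 87.2, 114, 135 and 130.3 CPM in WT 1 to WT 4. The log2 fold change was 0.14 ± 0.14 (SE, adjusted p = 0.810), and it was 0.03 without WT 1 and 0.23 without WT 3. Ifi35, a partner of NMI (chr11:101448407-101458698, plus strand), had 57.1, 58.8, 47.3, 52.2 and 64.6 CPM in KO 1 to KO 5, against 32.6, 53.9, 43.9 and 62.4 CPM in WT 1 to WT 4. Its log2 fold change was 0.22 ± 0.18 (SE, adjusted p = 0.760), or 0.07 without WT 1 and 0.36 without WT 4, and 16.8% of its exon bases are shared with the antisense gene Gm11626. Sp100, a component of nuclear bodies, averaged 95.9 ± 19.0 CPM in KO tumors and 82.0 ± 22.7 CPM in WT tumors. Rtp4, which encodes a receptor transporter protein, averaged 62.2 ± 9.62 CPM in KO tumors and 60.0 ± 12.9 CPM in WT tumors. Ifi44, a cytoplasmic protein of unsettled function, averaged 102 ± 17.5 CPM in KO tumors and 102 ± 22.8 CPM in WT tumors. Sp100 matches 4 predicted genes at 98.3% to 99.4% over at most 379 bases, and Rtp4 matches Gm45338 at 100% over 296 bases, so these levels are uncertain. Each of the 6 genes was lowest in WT 1.

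Per kilobase of exon, averaged over the 9 libraries, Ifitm3 had the highest level of the members at 133 CPM per kilobase. Ifi27 followed at 84.1, Bst2 at 64.4, Irf7 at 47.3 and Stat2 at 35.9 CPM per kilobase. Ifit2 was the lowest at 7.02 CPM per kilobase. By group, Ifitm3 had 136 CPM per kilobase in KO tumors and 130.1 in WT tumors, and Ifi27 had 87.8 in KO tumors and 79.4 in WT tumors. The order of the first 2 members was the same in both groups.

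The spread between tumors of one genotype was set beside the fold between genotypes. The highest WT library exceeded the lowest by a median of 1.85-fold over the members (1.15-fold to 3.70-fold), and the highest KO library exceeded the lowest by a median of 1.72-fold (1.27-fold to 2.48-fold). The fold between genotypes, taken in either direction, had a median of 1.09 and a maximum of 1.37. The spread inside KO exceeded that fold for 35 of 35 members. The spread inside WT did so for 34, the exception being Irgm1, whose WT libraries lay close together. A ratio of single libraries tends to exceed a fold between group averages in any gene that changes little. The share over all genes was not taken, so these counts describe the members and do not set them apart.

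Members were high or low together by library. Each value was set as log2 CPM against that gene's mean over the 9 libraries. The median deviation of the members was -0.25, 0.13, -0.11, 0.05 and 0.35 in KO 1 to KO 5, and -0.51, 0.02, -0.004 and 0.34 in WT 1 to WT 4. Over all genes tested it lay between -0.01 and 0.01 in every library. KO 5 was above the gene's mean for 34 of 35 members and WT 4 for 30, whereas KO 1 was above it for 2 and WT 1 for 4. Summed member levels were 4412 CPM in KO 5 and 2907 CPM in KO 1, and 4264 CPM in WT 4 and 2465 CPM in WT 1. Each genotype thus held a tumor at the high end and one at the low end.

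WT 1 was the lowest of the 9 libraries for 24 of 35 members (68.6%), against 21.4% of all genes tested. WT 4 was the highest for 14 (40.0%, against 12.1% of all genes) and KO 5 for 13 (37.1%, against 7.9%). The 11 members for which WT 1 was not the lowest were Ifih1, Ifit2, Rsad2, Cmpk2, Bst2, Ifitm3, Dtx3l, Parp9, Gbp2, Igtp and Irgm1. Inside the KO group, KO 5 was the highest for 25 members, and KO 1 was the lowest for 20. Inside the WT group, WT 4 was the highest for 28 and WT 1 the lowest for 29. Shares over all genes were not taken inside a group, so these counts describe the members and do not set them apart.

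**Figure D3:**
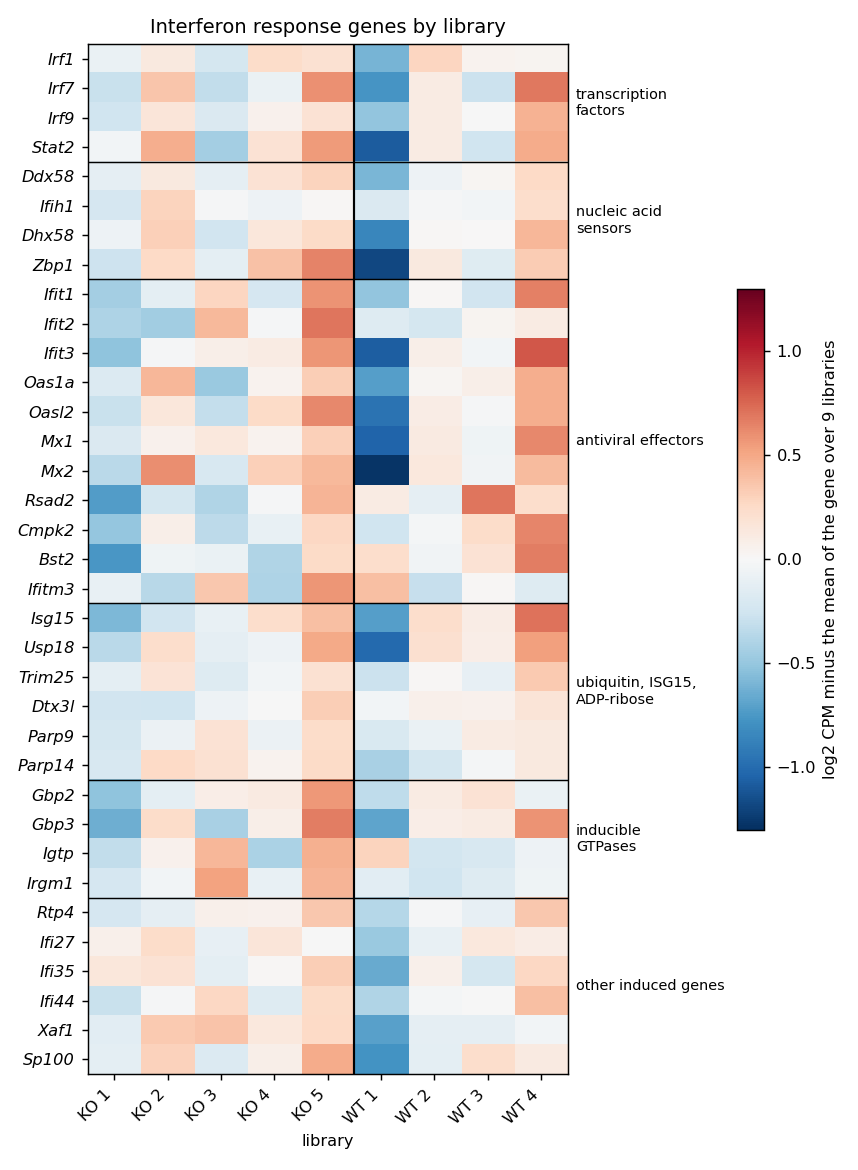
Log2 CPM of each member minus its mean over the 9 libraries, with KO libraries left of the vertical line and WT libraries right of it, and genes in rows by role. WT 1 is blue for most genes and is the lowest library for 24 of 35, while KO 5 and WT 4 are red for most, with 34 and 30 members above their own mean.

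Unmapped fragments made up 20.4% of KO 5 and 19.7% of KO 1, and 27.1% of WT 4 and 12.2% of WT 1, so in the WT group the share was highest where the members were highest. KO 3 had the lowest share of all. The part of this share in the member levels was not tested. Both ends of the WT group were casein-high libraries, so WT 1 and WT 4 shared that feature while holding the lowest and the highest summed member level of their group. With both left out, 0 members were called, 0 had an unadjusted p under 0.05, 10 were below 0 and the median log2 fold change was 0.06.

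Interferon transcripts themselves were at or near the limit of detection. Of 21 interferon genes listed, 13 had 0 counts in all libraries, which allows up to 0.482 to 0.680 CPM in a library by counting error alone. Fragments mapped to several places are not in the gene counts, so this bound does not hold for a gene with near-identical copies. Copies of the interferon genes were not sought. The other 8 had 5 counts in the KO libraries and 9 counts in the WT libraries altogether, and no library had more than 2 counts of one of them. Ifng had 3 counts in KO and 1 in WT, and Ifnb1 had 0 in KO and 2 in WT. None was tested.

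The 9 receptor and kinase genes were all measured, and the test called 0 of them, with 0 at an unadjusted p under 0.05. Their median log2 fold change was -0.18, with 1 above 0 (Tyk2) and 8 below, against a median of 0.06 for the members. Ifngr1, the ligand-binding chain of the interferon gamma receptor, had 40.4, 38.5, 53.2, 50.5 and 43.6 CPM in KO 1 to KO 5, against 95.8, 44.1, 49.5 and 49.7 CPM in WT 1 to WT 4. WT 1 was far above the other 8 libraries, and the log2 fold change of -0.40 ± 0.22 (SE, adjusted p = 0.663) was -0.08 without WT 1. Ifnlr1, the type III receptor chain, had a log2 fold change of -0.26 ± 0.13 (SE), Il10rb, its partner, -0.28 ± 0.17, and Ifnar2, a type I receptor chain, -0.13 ± 0.11. Without WT 1, Il10rb stood at -0.08 and Ifnar2 at -0.06. WT 1 was the highest library for 5 of the 9, although it was the lowest for most members.

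Of 14 genes that act before interferon in the sensing of nucleic acids, 0 were called and 6 had log2 fold changes above 0, with a median of -0.06. Ikbke, a kinase of IRF3 and IRF7, had 29.7, 28.7, 26.4, 32.3 and 26.0 CPM in KO 1 to KO 5, against 17.2, 29.3, 20.4 and 21.7 CPM in WT 1 to WT 4. WT 2 lay among the KO values, and the log2 fold change was 0.37 ± 0.16 (SE, adjusted p = 0.616), with an unadjusted p of 0.0419. Tlr9, a DNA receptor of endosomes, had 3.15, 3.91, 1.15, 1.26 and 4.27 CPM in KO 1 to KO 5, against 5.12, 4.39, 3.82 and 6.49 CPM in WT 1 to WT 4, a log2 fold change of -0.84 ± 0.39 (SE, adjusted p = 0.634). For Cgas, the cytosolic DNA sensor, the difference was 0.44 ± 0.33, and for Tbk1, the kinase that acts with IKBKE, it was 0.14 ± 0.12 (log2, SE). Without WT 1 these were 0.69 for Cgas and 0.08 for Tbk1, and without WT 4 Cgas stood at 0.21. Of 8 inhibitors of interferon signalling 0 were called, 6 were above 0 and the median was 0.10. Nlrc3, a negative regulator of DNA sensing, stood at 0.65 ± 0.52 (log2, SE), was highest in KO 5 and stood at 0.09 without KO 5 and 0.41 without WT 2. Socs3 had -0.25 ± 0.19, Ptpn2 0.16 ± 0.18 and Pias1 0.11 ± 0.12 (SE), and the value of Socs3 was 0.07 with age as a covariate. Without WT 2 Socs3 stood at -0.02, and without KO 3 Ptpn2 stood at 0.02 and Pias1 at 0.05.

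A further 59 interferon-induced genes outside the 35 were set beside them, and 55 passed the filter. The edgeR test called 0 of 55, 32 had log2 fold changes above 0 and 23 below, and the median was 0.08. At an unadjusted p under 0.05, 1 gene (Epsti1) was higher and 2 (Ly6e and Shisa5) were lower in KO, against 3.36% and 4.59% of all genes, and 2 had libraries that did not overlap (1 higher in KO, against 1.44% of all genes, and 1 lower, against 1.26%). Ly6e, which encodes a lipid-anchored inhibitor of coronavirus fusion, had 1470.1, 1224, 1339, 1076 and 1379 CPM in KO 1 to KO 5, against 2679, 1550.0, 1667 and 1786 CPM in WT 1 to WT 4. All 5 KO libraries were below all 4 WT libraries, and the log2 fold change was -0.57 ± 0.18 (SE, adjusted p = 0.613), and -0.36 without WT 1. Epsti1, the epithelial stromal interaction gene, had 20.9, 25.7, 20.4, 22.4 and 34.5 CPM in KO 1 to KO 5, against 18.4, 19.0, 18.3 and 16.8 CPM in WT 1 to WT 4. All KO libraries were above all WT libraries, and the log2 fold change was 0.45 ± 0.17 (SE, adjusted p = 0.616). For Shisa5 the log2 difference was -0.45 ± 0.16, and -0.28 without WT 1, and for Slfn8 it was 0.31 ± 0.14 (SE). The library order was like that of the members, since WT 1 was lowest for 27 of 55 (49.1%), KO 5 highest for 20 (36.4%) and WT 4 highest for 18 (32.7%).

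**Figure D4:**
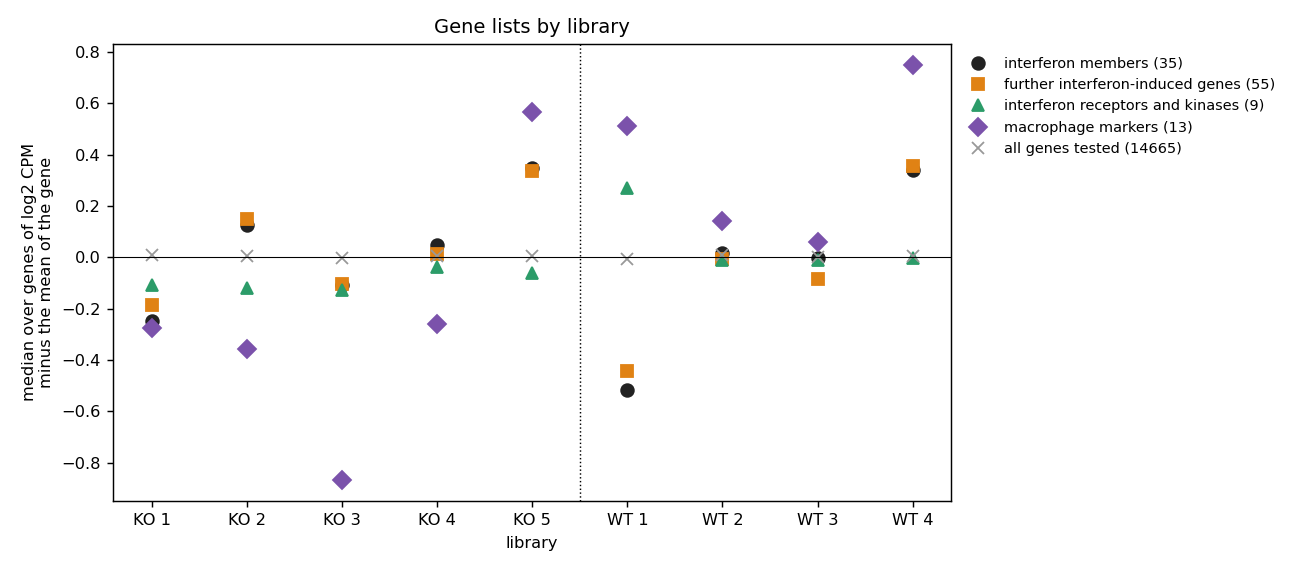
Median over genes of log2 CPM minus each gene's mean, by library, for 4 gene lists and for all genes tested, with KO libraries left of the dotted line and WT libraries right of it. The members and the further interferon-induced genes lie together in each library, while the macrophage markers are high in KO 5 (0.56) and WT 4 (0.75), where the members are highest (0.35 and 0.34), and also in WT 1 (0.51), where the members are lowest (-0.51).

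Of the markers of other cells in the tumors, those of macrophages were high in KO 5 and WT 4, where the members were highest, and in WT 1, where most members were lowest. The 14 macrophage markers summed to 239 to 490 CPM in KO libraries, highest in KO 5, and to 390 to 641 CPM in WT libraries, with 641 CPM in WT 1 and 635 CPM in WT 4. All 13 that were tested had log2 fold changes below 0, against 50.0% of all genes, with a median of -0.53, and 0 were called. This direction was not particular to macrophage markers. Below 0 were also 8 of 8 endothelial (median -0.83), 8 of 9 fibroblast (-0.68) and 10 of 10 mammary epithelial markers (-0.45). The 2 neutrophil markers tested were above 0. In bulk samples fewer cells of a type and less RNA per cell cannot be told apart. T and NK cell markers summed to 4.27 to 34.9 CPM in KO libraries, the highest in KO 5, and 11.1 to 19.2 CPM in WT libraries. Neutrophil markers summed to 3.61 to 27.4 CPM in KO libraries, also highest in KO 5, and 5.65 to 13.0 CPM in WT libraries, with Ly6g at 0 counts throughout.

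The 7 plasmacytoid dendritic cell markers, a list that itself holds Bst2, summed to 151 to 196 CPM in KO libraries and 202 to 269 CPM in WT libraries, nearly all of it from Tcf4 (94.2 to 129.9 CPM in KO and 85.3 to 148 CPM in WT), Ly6d (126 CPM in WT 2) and Bst2. Siglech, their defining gene, had at most 2.61 CPM in KO and 2.72 CPM in WT. B cell markers summed to 1.81 to 9.23 CPM in KO libraries and 5.23 to 12.8 CPM in WT libraries. Fibroblast markers summed to 203 to 423 CPM in KO libraries and 541 to 747 CPM in WT libraries. Most of it came from Col1a1 (106 to 239 CPM in KO and 243 to 465 CPM in WT) and Col1a2 (55.1 to 134 CPM in KO and 150 to 235 CPM in WT). These 2 of the 9 markers had no overlap of KO and WT libraries, against 2.7% of all genes. Dcn had 105 CPM in WT 2, and Fap alone had a log2 fold change above 0 (0.35). Endothelial markers summed to 21.4 to 62.4 CPM in KO libraries and 41.0 to 145 CPM in WT libraries, the highest in WT 1. The part of these cells in the member levels was not tested.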

How the data were processed

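Stranded, ribosomal RNA-depleted libraries of 9 dissociated mammary tumors (5 KO, 4 WT) were sequenced as paired ends, per the labels' protocols. Trimmomatic 0.36, FastQC 0.11.5, STAR 2.5.4a and GRCm38 were used (annotation release, strand setting and step order not given in the sources used here), per the submitters' processing notes. The deposited table holds unnormalized counts per gene and library, as the authors left them. Entries naming no gene stayed out of totals and tests: unmapped (11.0% to 27.1% of fragments), multimapped (5.50% to 9.53%), no feature (34.0% to 50.4%) and ambiguous (0.971% to 1.23%). Fragments mapped to several places are not in the gene counts, which lowers genes with near-identical copies.

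Of 55401 identifiers, 55141 matched a symbol in GENCODE M21 (GRCm38), whose positions and exon lengths are given. Samples were grouped by the genotype label. KO and WT were compared with edgeR 4.0.16 (glmQLFit and glmQLFTest, two-sided) in R 4.3.3, on all 9 libraries, with TMM scaling, filterByExpr (14665 genes) and genotype as the only term; p-values were adjusted over all genes tested by Benjamini-Hochberg, with 0.05 as the threshold. The SE is the log2 fold change over the square root of F. CPM uses the tested-gene total times the TMM factor, log2 CPM a prior count of 2, and floors 3 counts of the gene total, which cover counting error only. Values are mean ± SD over n = 5 KO and n = 4 WT libraries. Alternatives were DESeq2 1.42.0, limma 3.58.1 (voom with sample weights), other scalings and filters, age as a covariate, a replicate block and left-out libraries. The code was tested on simulated counts.

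Promoter windows are RefSeq's (GRCm38.p6). Copies were sought with BLAST 2.17.0 (at least 95% identity over 150 bases). Members and lists were chosen with earlier results of these data known. Values in every library are given for the 8 members with the smallest unadjusted p, the 3 with the highest CPM per kilobase, the core genes Isg15, Irf7, Stat2 and Irf9, any member without overlap, and up to 4 genes per further list by smallest p, some of these by their fold change alone.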

Additional observations from a re-analysis of the deposited data

Results flagged for a closer look

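In 5 of 102 groups tested, 51 genes in 2 genotypes, 1 library lay farther from the rest of its group than Dixon's 95% limit allows, and chance gives about 1 in 20. Xaf1 had 38.6 CPM in WT 1, below the 58.1 to 61.3 CPM of the other WT libraries. Ifngr1 had 95.8 CPM in WT 1, above 44.1 to 49.7 CPM in the other WT libraries. Ifnar2 had 45.6 CPM in WT 1, above 37.6 to 38.2 CPM in the other WT libraries. Both receptor chains were thus high in the library where most interferon response genes were lowest. Nlrc3 had 8.38 CPM in KO 5, above 1.63 to 3.35 CPM in the other KO libraries, and its log2 fold change of 0.65 was 0.09 without KO 5. Shisa5 had 132 CPM in KO 5, above 93.2 to 103 CPM in the other KO libraries.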

How the results depend on the processing

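Under all 19 alternatives 0 of 35 interferon response genes were called, and the smallest adjusted p of a member was 0.301 (Bst2, age as a covariate). The count of all genes called was 13 of 14665, and 6 to 13 when single libraries were left out. Other gene sets gave 63 of 29228 with DESeq2, 29 of 29228 with no count filter and 6 of 10425 with a mean count of at least 50. Members at an unadjusted p under 0.05 numbered 2, against 1 with upper-quartile factors, with library totals alone or with a mean count of at least 50, 0 without WT 1 and WT 4, and 1 to 3 with single libraries left out. Members below 0 numbered 8, against 20 with limma-voom, 5 with library totals alone, where the median of all genes was 0.06, and 5 to 22 with single libraries left out. The median of the members ranged from -0.06 without WT 1 to 0.21 without WT 4. With age as a covariate Ifitm3 was -0.26 and Socs3 0.066 (log2 fold change). With single libraries left out, Mx1 ranged from -0.17 to 0.32, Usp18 from -0.22 to 0.21 and Ifit3 from -0.24 to 0.34. Pairing by the sample numbers in the titles was not established, since the correlations of same-numbered deviations were -0.02, 0.38, 0.11 and 0.38 for numbers 1 to 4, and KO 2 and KO 4 correlated best with the WT library of their own number while KO 1 and KO 3 did not. With that number as a replicate block, where KO 5 has no partner and adds nothing to the genotype term, 0 members were called, 20 were below 0, 3 had an unadjusted p under 0.05 and the median was -0.02. The causes of these shifts were not tested. With 4 and 5 libraries per group, members carry a median SE of 0.21, and changes that the intervals allow can go uncalled. On simulated counts, over genes of all levels, edgeR called 7 of 200 genes changed 1.5-fold and 114 of 200 changed 2-fold.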
